A study of Mus musculus with 6 samples.

Results

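B-cell receptor and B-lineage identity genes were examined in RNA sequencing libraries of mouse T cells grown together with ID8, an ovarian cancer cell line of the mouse. The set was fixed as 9 gene symbols, all of which were found among the 54532 genes of the deposited table. They comprised the signalling chains of the B-cell receptor (Cd79a and Cd79b), its linker Blnk, the surface proteins Cd22, Cr2, Ms4a1 and Fcer2a, and the transcription factors Pax5 and Ebf1. The study asked how tumour cells that had met cisplatin change the T cells beside them. In 3 libraries the ID8 cells had been pretreated with 40 µM cisplatin (cisplatin), and in the other 3 they had been pretreated with phosphate-buffered saline (control, WT in the sample titles). In both groups the T cells came from spleens of young adult C57BL/6 mice, were purified with a pan T-cell isolation kit, were kept in medium with IL-2 and were activated with anti-CD3/CD28 beads. The length of the co-culture and the number of mice behind each library are not given in the sources used here. The p-values below therefore measure only the spread between these libraries, which may be technical.

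The B-cell receptor is a membrane immunoglobulin that cannot signal alone. It is held by a heterodimer of CD79A and CD79B, whose cytoplasmic tails are phosphorylated when antigen is bound. The kinases SYK and BTK, the linker BLNK and phospholipase PLCG2 carry the signal onward, CD22 dampens it, and CD21, the product of Cr2, amplifies it when antigen carries complement. EBF1 and PAX5 start and maintain the B-cell programme and bind regulatory regions of many of the other genes. T cells are not known for any of these transcripts at high level, and a pan T-cell kit is built to deplete B cells.

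RefSeq promoter windows on GRCm38.p6 were at hand for 7 of the 9 genes, and their 250 bases before the start were searched on both strands for 4 motifs. These were the EBF motif (TCCC and GGGA with any 2 bases between them), the octamer ATGCAAAT bound by OCT factors, the E-box CAGGTG bound by E proteins and the ETS core AGGAAG. Of 32851 promoter windows of this length, 0.779% held the EBF motif, 1.6% the octamer, 17.2% the E-box and 29.5% the ETS core. The sequences shown are those of 2 genes that were higher in the cisplatin libraries (Cd79a and Cd22), of Cr2, which did not pass the test, and of Fcer2a, which was lower, each without the part that lies in an annotated exon of the gene. Capitals mark motif matches.
Cd79a (chr7:24897247-24897380, plus strand): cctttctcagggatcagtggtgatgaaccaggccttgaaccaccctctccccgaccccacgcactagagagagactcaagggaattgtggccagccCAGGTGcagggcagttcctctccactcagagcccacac
Cd22 (chr7:30879029-30879176, minus strand): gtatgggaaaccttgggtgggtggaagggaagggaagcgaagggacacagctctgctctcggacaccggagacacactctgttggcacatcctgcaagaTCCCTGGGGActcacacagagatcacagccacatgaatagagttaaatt
Cr2 (chr1:195176720-195176969, minus strand): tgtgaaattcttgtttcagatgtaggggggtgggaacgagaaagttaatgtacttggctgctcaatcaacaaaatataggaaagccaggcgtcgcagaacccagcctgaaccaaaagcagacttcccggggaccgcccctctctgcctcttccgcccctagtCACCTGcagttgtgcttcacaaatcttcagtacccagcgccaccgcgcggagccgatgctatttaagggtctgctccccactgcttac
Fcer2a (chr8:3694176-3694424, minus strand): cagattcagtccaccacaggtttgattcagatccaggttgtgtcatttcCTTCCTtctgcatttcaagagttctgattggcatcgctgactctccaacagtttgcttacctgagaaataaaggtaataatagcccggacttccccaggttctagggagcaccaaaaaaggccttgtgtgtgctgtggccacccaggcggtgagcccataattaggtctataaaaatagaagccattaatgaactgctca
Cd22 was the only gene of the 7 with a match to the EBF motif, which lay 49 to 40 bases before its RefSeq start, inside an intron of longer annotated transcripts. Blnk was the only gene of the 7 with an octamer, 130 to 123 bases before its start. The site with its flanks, at chr19:40994334-40994361 on the minus strand, lies in the first annotated exon and reads as follows.
Blnk octamer site: actggaagggATTTGCATgcccaataag
Cd79a held an E-box and, 55 to 50 bases before its start and in an exon, an ETS core. Blnk held both as well. Cr2 held an E-box, and so did Cd22, 245 to 240 bases before its start and outside the stretch shown. The first of 3 Fcer2a windows, the one shown, held an ETS core, and the second held an ETS core and 2 E-boxes. The windows of Pax5 and Ebf1 held no match to the 4 motifs. These matches describe letters in a window and not bound sites, and the most frequent motifs are also found in many other promoters.

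The table gave FPKM, that is, fragments scaled by the length of the gene and a factor for each library. Whole reads could be rebuilt from these values, and the libraries held 30606569 to 32169496 reads on genes. All 9 genes lay above the minimum mean of 0.5 FPKM used for the 15874 tested genes. The limma test was run on log2(FPKM + 0.1), and adjusted p-values (Benjamini-Hochberg) are over all tested genes. The added 0.1 makes fold changes of weakly expressed genes too small.

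B-lineage transcripts were present in every library. The summed level of the 9 genes was 325 to 349 FPKM in the cisplatin libraries and 221 to 237 FPKM in the control libraries. The 26 T-cell identity genes summed to 3161 to 3235 FPKM in the cisplatin and 2014 to 2143 FPKM in the control libraries, so the defining genes of the labelled cell type were present in all 6 libraries. The sum of the 9 B-lineage genes averaged 230.03 FPKM in the control libraries and that of the 26 T-cell identity genes 2087 FPKM. Cd79a, the highest of the 9 there, averaged 92.6 FPKM in control libraries, where Cd3d, a chain of the T-cell receptor complex, averaged 107 FPKM and Cd3e, another chain of it, 31.9 FPKM. The other 8 B-lineage genes averaged from 0.635 FPKM (Cr2) to 73.4 FPKM (Cd79b). Single T-cell identity genes averaged from 1.30 to 318 FPKM in control libraries, so Cd3d and Cd3e do not stand for the whole list.

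On the FPKM as deposited, 7 of the 9 genes were higher with cisplatin-pretreated ID8 cells at an adjusted p under 0.05, while Fcer2a was lower and Cr2 did not pass. Among all tested genes 27.5% were higher and 29% were lower by the same test. The 3 cisplatin libraries lay above the 3 control libraries without overlap for the same 7 genes, where 31.9% of all tested genes did so, and below them for Fcer2a, where 32.3% of all tested genes did so. With a fold change of at least 2 also required, Fcer2a was called lower (12.8% of all tested genes were) and none of the 9 was called higher (4.11% of all tested genes were). The direction of several genes depended on the scale. T-cell identity genes were themselves higher in the cisplatin libraries (25 of 26 by limma). Relative to their mean in each library, 3 of the 9 B-lineage genes were higher (Ms4a1, Blnk and Cd79b). Another 3 were lower (Fcer2a, Cd22 and Cd79a), and 3 did not pass (Pax5, Ebf1 and Cr2). The T-cell identity genes did not move alike: relative to their own mean 10 of the 26 were higher, 7 lower and 9 did not pass. A call by this measure is thus against the mean of the list and not against each T-cell gene. By that measure 5.24% of all tested genes were higher and 64% lower. The median log2 fold change was 0.38 over the 9 genes and 0.03 over all tested genes on the FPKM as deposited, and -0.16 and -0.51 relative to the T-cell identity genes. The gap of 0.35 between these medians is the same on both scales by construction, since centring moves every gene of a library alike. In these bulk libraries, fewer cells of a type and less RNA per cell cannot be told apart.

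**Figure D1:**
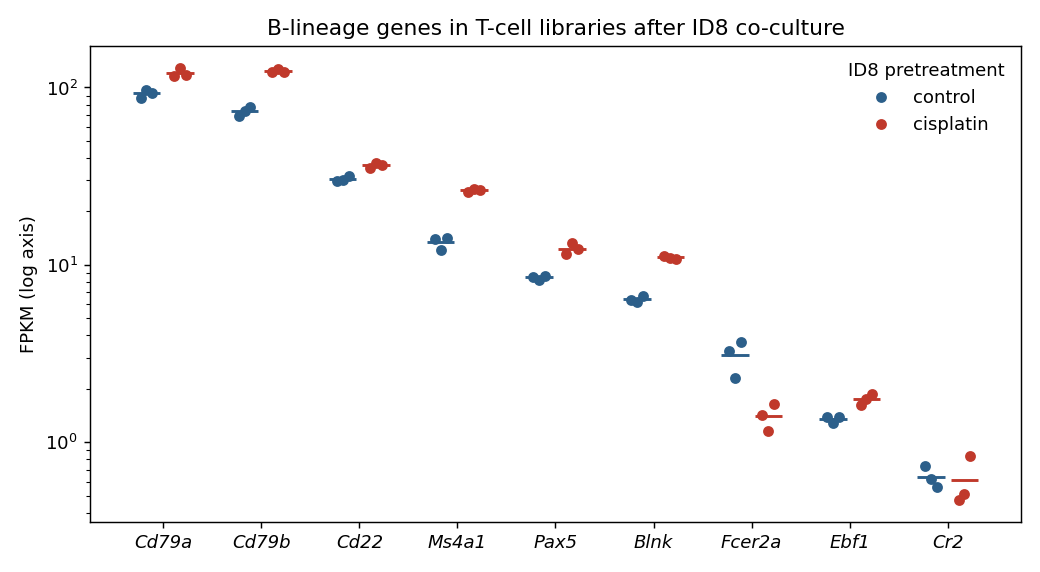
FPKM of the 9 B-lineage genes in each library on a log axis, with blue points for the 3 control and red points for the 3 cisplatin libraries and lines at the group means. Cisplatin libraries sat above control libraries for 7 genes on this scale, below them for Fcer2a, and overlapped them for Cr2; relative to T-cell identity genes Cd79a and Cd22 were lower.

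Marker genes of other cell types also differed between the groups, in both directions. Of 16 tested ID8 tumour markers 14 were called lower, as were 12.8% of all tested genes. The summed level of the ID8 markers was 1576 to 1660 FPKM in the control and 254 to 263 FPKM in the cisplatin libraries. Of 11 tested myeloid markers 9 were higher and 1 lower by limma (6 higher and 2 lower relative to the T-cell identity genes). Of all tested genes 27.5% were higher and 29% lower (5.24% and 64% by the relative measure). The summed level of the myeloid markers was 66.3 to 70.8 FPKM in control and 130 to 150 FPKM in cisplatin libraries. The part of these changes in the B-lineage values was not tested.

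The chains of the receptor complex were the most abundant of the 9 genes. Cd79a (ENSMUSG00000003379, chr7:24897381-24902197 on GRCm38) had 115, 129 and 117 FPKM in the cisplatin libraries and 87.6, 97.2 and 92.9 FPKM in the control libraries. The groups did not overlap, and the means of 121 ± 7.66 and 92.6 ± 4.77 FPKM (SD, n = 3 each) corresponded to a log2 fold change of 0.38 (standard error, SE, 0.06, limma adjusted p = 0.0014). Cd79a was lower relative to the T-cell identity genes, by a log2 fold change of -0.16 (SE 0.05, limma adjusted p = 0.035). That call was lost without cisplatin replicate 1 (log2 fold change -0.14) or 3 (-0.13) and without control replicate 2 (-0.13) or 3 (-0.17), where the adjusted p from limma was at most 0.11.

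Its partner Cd79b (ENSMUSG00000040592, chr11:106311341-106314762) rose by more. It had 122, 127 and 122 FPKM with cisplatin and 69.5, 73.3 and 77.6 FPKM in control, means of 124 ± 3.07 and 73.4 ± 4.04 FPKM (SD, n = 3 each). The groups were well apart, with a log2 fold change of 0.75 (SE 0.05, limma adjusted p = 1.6e-05), and of 0.21 relative to the T-cell identity genes (limma adjusted p = 0.0025). The chains form a heterodimer at the protein level, but their transcripts did not keep a fixed ratio. Cd79b FPKM was 106%, 98.3% and 104% of Cd79a FPKM in the cisplatin libraries and 79.3%, 75.4% and 83.5% in the control libraries. The levels of the chains thus overlapped between genes in the cisplatin group, whereas Cd79a was above Cd79b in every control library.

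The linker Blnk (ENSMUSG00000061132, chr19:40928927-40994535), which brings BTK and PLCG2 to the activated receptor, had 11.2, 11.0 and 10.8 FPKM with cisplatin and 6.37, 6.20 and 6.71 FPKM in control. The 3 cisplatin values were close together and all above the control values. The log2 fold change was 0.77 (SE 0.05, limma adjusted p = 2.0e-05) and 0.23 relative to the T-cell identity genes (limma adjusted p = 0.0067). Blnk is also used by cells of the myeloid lineage, whose markers rose in the same libraries, and their part in its value was not tested.

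Among the surface proteins, Ms4a1 showed the highest fold change of the 9 genes. It encodes CD20, a membrane protein of B cells from the precursor to the memory stage and the target of therapeutic antibodies. Ms4a1 (ENSMUSG00000024673, chr19:11249675-11266241) had 25.7, 26.9 and 26.5 FPKM in the cisplatin libraries and 13.98, 12.2 and 14.3 FPKM in the control libraries, with 5137 to 5506 and 2262 to 2706 rebuilt reads. Means of 26.3 ± 0.616 and 13.5 ± 1.12 FPKM (SD, n = 3 each) gave a log2 fold change of 0.96 (SE 0.06, limma adjusted p = 2.5e-05), and 0.42 relative to the T-cell identity genes (limma adjusted p = 0.0010). This was just under the fold change of 2 required for a call, and without control replicate 3 it was just over it (log2 fold change 1.007).

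Cd22 (ENSMUSG00000030577, chr7:30865402-30880342), an inhibitory lectin that binds sialic acid and recruits phosphatases to the receptor, changed least among the 7 genes that were higher. Its values were 35.1, 37.6 and 36.6 FPKM with cisplatin and 29.8, 30.2 and 31.7 FPKM in control. The groups did not overlap although they were close, and the log2 fold change was 0.25 (SE 0.04, limma adjusted p = 0.0017). Cd22 was lower relative to the T-cell identity genes by a log2 fold change of -0.29 (SE 0.04, limma adjusted p = 3.3e-04).

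Fcer2a and Cr2, markers of mature follicular B cells, were the least abundant surface proteins of the set and did not follow the other genes. Fcer2a (ENSMUSG00000005540, chr8:3681737-3694175) encodes CD23, the low-affinity receptor for IgE. It had 1.43, 1.16 and 1.64 FPKM in the cisplatin libraries and 3.26, 2.31 and 3.68 FPKM in the control libraries, or 143, 119 and 164 against 303, 214 and 349 rebuilt reads. Every cisplatin value was below every control value, with means of 1.41 ± 0.238 and 3.08 ± 0.703 FPKM (SD, n = 3 each). The log2 fold change was -1.06 (SE 0.20, limma adjusted p = 0.0042) and -1.60 relative to the T-cell identity genes (limma adjusted p = 3.5e-04). The fold change was under 2 without cisplatin replicate 2 (log2 fold change -0.94) and without control replicate 3 (-0.93), where it kept an adjusted p of 0.015 and 0.016 from limma.

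Cr2 (ENSMUSG00000026616, chr1:195136811-195176716) encodes CD21 and, in the mouse, by alternative splicing also CD35, which a value per gene cannot tell apart. It had 0.472, 0.513 and 0.841 FPKM with cisplatin and 0.731, 0.617 and 0.558 FPKM in control, from 124 to 221 rebuilt reads a library. The groups overlapped, since cisplatin replicate 3 was the highest of all 6 libraries while the other 2 cisplatin libraries were the lowest. The log2 fold change of -0.08 (SE 0.29, limma adjusted p = 0.83) changed sign between settings, so no direction was found at this depth.

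Both transcription factors were higher on the FPKM as deposited, and neither passed relative to the T-cell identity genes. Pax5 (ENSMUSG00000014030, chr4:44524757-44710487), which holds B cells to their lineage, had 11.5, 13.3 and 12.3 FPKM with cisplatin and 8.55, 8.25 and 8.69 FPKM in control. Without overlap between the groups, its log2 fold change was 0.53 (SE 0.06, limma adjusted p = 4.0e-04), while relative to the T-cell identity genes it was -0.01 (SE 0.06, limma adjusted p = 0.93). Genes that overlap Pax5 in the table averaged at most 20.7 rebuilt reads, against 2924 for Pax5.

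Ebf1 (ENSMUSG00000057098, chr11:44617317-45008091), which acts upstream of Pax5 and is also used by stromal and fat cells, had 1.62, 1.76 and 1.86 FPKM with cisplatin and 1.38, 1.28 and 1.38 FPKM in control. These are low levels, with 375 to 589 rebuilt reads a library over a long transcript. The log2 fold change of 0.35 (SE 0.12, limma adjusted p = 0.044) was near the threshold. It lost the call when any single library was left out, where the adjusted p from limma was 0.053 to 0.13, and relative to the T-cell identity genes the log2 fold change was -0.19 (limma adjusted p = 0.21). The 9 markers of fibroblasts and fat cells summed to 9.68 to 9.84 FPKM in the cisplatin and 41.2 to 42.7 FPKM in the control libraries, and most of this was Dcn, a matrix proteoglycan (7.51 ± 0.212 against 39.2 ± 1.03 FPKM). Dcn and Col1a1, a collagen chain, were the 2 tested markers and were lower. The other 7 were under the minimum level and not tested, among them the fat-cell markers Fabp4 and Adipoq. Fabp4 was higher in every cisplatin library than in any control library (means 0.161 and 0.0197 FPKM), as were 31.9% of all tested genes. Adipoq overlapped between the groups. The part of these cells in the value of Ebf1 was not tested.

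**Figure D2:**
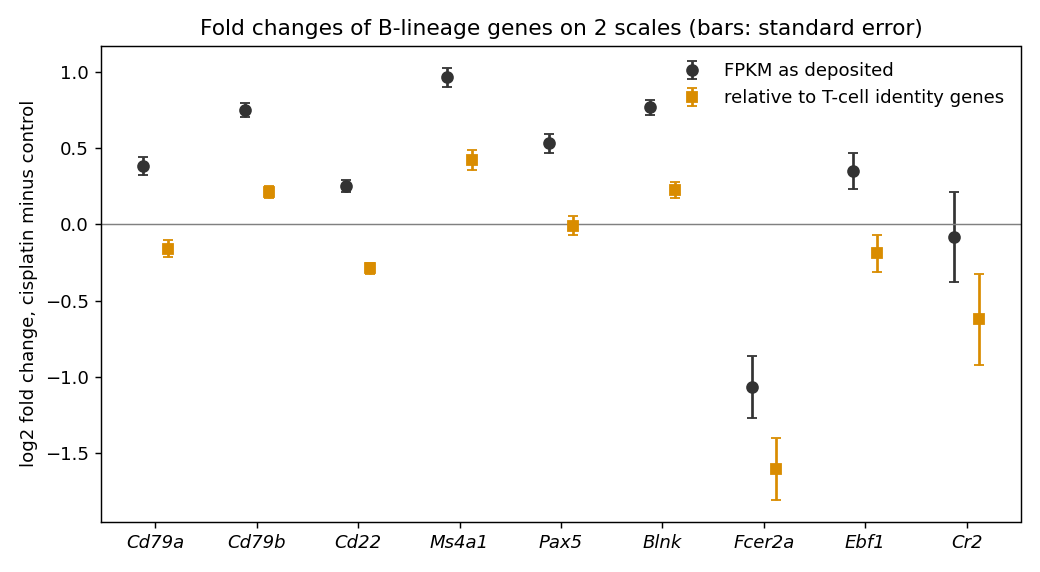
Log2 fold change (cisplatin minus control) of the 9 genes by limma, with black points for the FPKM as deposited, orange squares for values relative to the mean of 26 T-cell identity genes, and bars of 1 standard error. Ms4a1, Blnk and Cd79b were above 0 on both scales, Fcer2a and Cr2 (which did not pass) were below 0 on both, and Cd79a, Cd22, Pax5 and Ebf1 were above 0 as deposited and below 0 relative to the T-cell identity genes, where Pax5 and Ebf1 did not pass.

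The order of the levels was almost the same in both groups. In control libraries it ran from Cd79a through Cd79b, Cd22, Ms4a1, Pax5, Blnk, Fcer2a and Ebf1 to Cr2, and no neighbours in that order overlapped in range. In cisplatin libraries Cd79b and Cd79a overlapped at the top, and Ebf1 and Fcer2a overlapped near the bottom. Fcer2a, between Blnk and Ebf1 in control libraries, thus came to lie level with Ebf1.

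To ask whether the 9 genes changed alike, each was expressed relative to Cd79a within its own library. Ms4a1 was 22.2%, 20.7% and 22.6% of Cd79a FPKM in the cisplatin and 15.9%, 12.5% and 15.3% in the control libraries. Fcer2a was 1.24%, 0.897% and 1.40% of Cd79a FPKM in the cisplatin and 3.72%, 2.38% and 3.96% in the control libraries. Neither gene overlapped between groups on this measure, and the same held for Cd79b, Blnk and Pax5. Among all tested genes, 8.82% lay above without overlap relative to Cd79a, as 4 of these 5 did, and 54.4% lay below, as Fcer2a did. Of the 8 ratios, these 5 had p = 0.1 by exact permutation (two-sided), which is the smallest that 3 libraries against 3 allow (0.16 after adjustment over the 8). In a limma fit across all genes on values relative to Cd79a, added after the data were seen, Ms4a1 (log2 difference 0.58, SE 0.10, adjusted p = 0.0013), Blnk (0.39, SE 0.09, adjusted p = 0.0069) and Cd79b (0.37, SE 0.06, adjusted p = 0.0011) rose by more than Cd79a. Fcer2a differed from Cd79a by -1.45 (SE 0.24, limma adjusted p = 0.0011). The differences of Pax5 (0.15, SE 0.08), Cd22 (-0.13, SE 0.07), Ebf1 (-0.03, SE 0.16) and Cr2 (-0.46, SE 0.34) did not pass. Relative to Cd79a, 7.05% of all tested genes were higher and 48.9% lower.

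**Figure D3:**
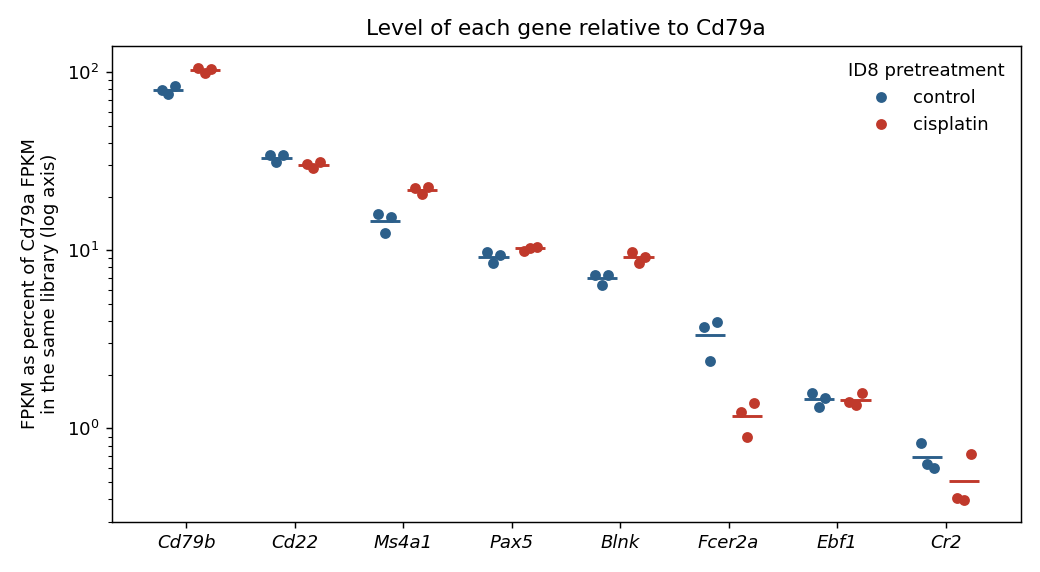
FPKM of 8 B-lineage genes as a percentage of the Cd79a FPKM of the same library, on a log axis, with blue points for control and red points for cisplatin libraries and lines at the group means. Cd79b, Ms4a1, Blnk and Pax5 had all cisplatin points above the control points, Fcer2a had all of them below, and Cd22, Ebf1 and Cr2 overlapped.

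The rest of the pathway was followed in 23 genes of B-cell receptor signalling, several of which T cells or myeloid cells also use. On the FPKM as deposited 17 were higher, 3 lower and 3 did not pass, with a median log2 fold change of 0.52. Of all tested genes 27.5% were higher and 29% lower by the same test. Ptpn6, a phosphatase recruited by CD22, rose from 43.8 ± 0.290 to 89.9 ± 2.67 FPKM (n = 3 each, SD), with log2 fold change 1.04 (limma adjusted p = 7.3e-07). Btk, the kinase that acts with Blnk, rose from 6.37 ± 0.362 to 12.5 ± 0.470 FPKM (log2 fold change 0.96, limma adjusted p = 1.6e-05). Vav1, an exchange factor shared with T cells, had a log2 fold change of 0.90 (limma adjusted p = 6.3e-06). The exception of largest size was Cd81, a widely expressed tetraspanin of the CD21 coreceptor complex, which fell from 72.4 ± 1.63 to 24.3 ± 0.324 FPKM (log2 fold change -1.57, limma adjusted p = 1.5e-07). Relative to the T-cell identity genes, 5 of the 23 were higher (Ptpn6, Btk, Vav1, Blk and Pik3cd), 9 lower and 9 did not pass. By that measure 5.24% of all tested genes were higher and 64% lower.

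Of 24 other B-lineage genes, 19 were higher, 1 was lower and 4 did not pass on the FPKM as deposited (median log2 fold change 0.53). Of all tested genes 27.5% were higher and 29% lower by the same test. Cd180, a receptor related to Toll-like receptors, rose from 3.36 ± 0.322 to 10.9 ± 0.564 FPKM (n = 3 each, SD), with log2 fold change 1.67 (limma adjusted p = 7.0e-06). Fcrl5, an Fc receptor-like protein, and Cd40, the receptor for the T-cell ligand CD40L, rose by log2 1.33 (limma adjusted p = 8.5e-05) and 1.10 (limma adjusted p = 0.0018). Cd55, a complement regulator found on many cell types, was the lower gene and fell from 23.9 ± 0.637 to 7.66 ± 0.512 FPKM (log2 fold change -1.63, limma adjusted p = 1.3e-06). Relative to the T-cell identity genes, 8 of the 24 were higher, 6 lower and 10 did not pass, and Cd180, Fcrl5 and Cd40 were among the 8. By that measure 5.24% of all tested genes were higher and 64% lower. Myeloid markers had a median log2 fold change of 1.35 on the FPKM as deposited, and the part of myeloid cells in these values was not tested.

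**Figure D4:**
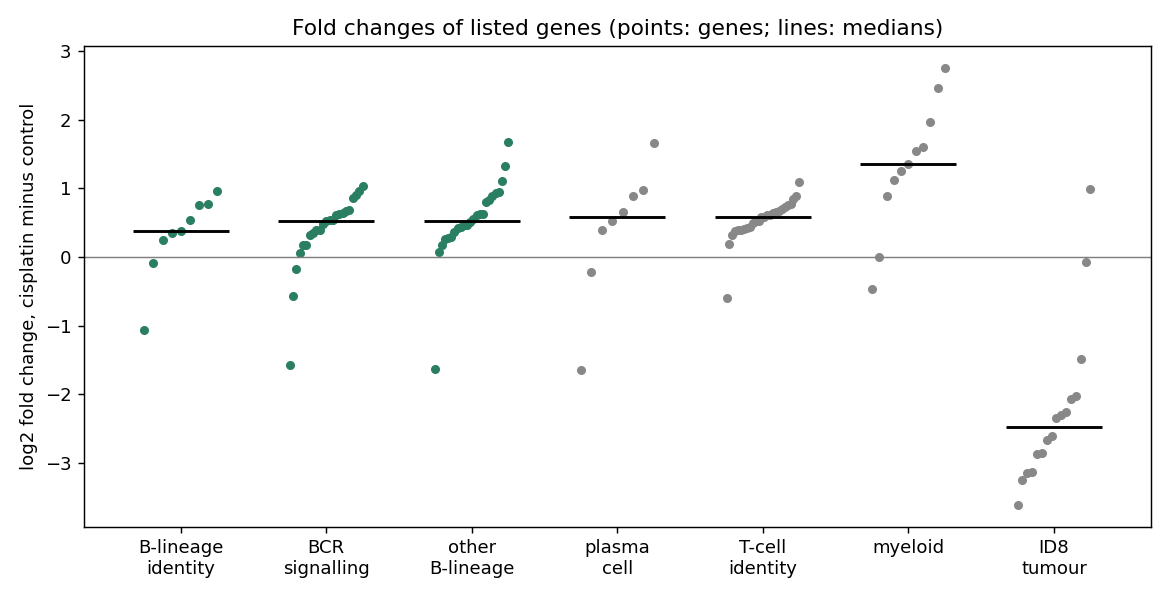
Log2 fold change (cisplatin minus control, FPKM as deposited) of each tested gene in 7 lists, with points for genes and lines for list medians, and green for the 3 B-lineage lists. The medians of the B-lineage lists (0.38, 0.52 and 0.53) lay near that of the T-cell identity genes (0.58) on this scale and were -0.16, -0.02 and -0.01 relative to the T-cell identity genes, with genes on both sides of 0, while ID8 tumour markers had a median of -2.47.

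Genes of the progenitor stage of B cells were mostly at or near 0. Of 7 early B-progenitor genes 5 were under the minimum level. Vpreb2 was at 0 in every library, Rag1, Rag2 and Igll1 averaged at most 2 rebuilt reads in either group, and Vpreb1 averaged 10.3 in cisplatin and 3.67 in control libraries. Dntt, the terminal transferase, fell from 1.62 ± 0.118 to 0.373 ± 0.225 FPKM (n = 3 each, SD), with log2 fold change -1.99 (limma adjusted p = 0.0048), and Il7r, which T cells also express, rose on the FPKM as deposited (log2 fold change 0.61, limma adjusted p = 6.1e-06) and did not pass relative to the T-cell identity genes (0.07).

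Of 8 tested plasma-cell genes 6 were higher and 2 lower on the FPKM as deposited, against 3 higher and 2 lower relative to the T-cell identity genes. Of all tested genes 27.5% were higher and 29% lower as deposited, and 5.24% higher and 64% lower by the relative measure. Jchain, the joining chain of secreted polymeric immunoglobulin, rose from 46.8 ± 2.41 to 148 ± 2.25 FPKM (n = 3 each, SD, log2 fold change 1.66, limma adjusted p = 3.6e-07) and Irf4, a factor of activated lymphocytes and plasma cells, from 15.6 ± 0.720 to 30.9 ± 0.546 FPKM (log2 fold change 0.98, limma adjusted p = 3.8e-06). Sdc1, a proteoglycan of plasma cells and of epithelium, fell from 29.7 ± 1.78 to 9.45 ± 1.003 FPKM (log2 fold change -1.64, limma adjusted p = 7.6e-06). Follicular dendritic cells share Cr2 and Fcer2a with B cells, and their marker Cxcl13 was at 0 in every library. The 4 markers in the table summed to 0.722 to 1.04 FPKM in the cisplatin and 0.444 to 0.767 FPKM in the control libraries. Cr2 itself averaged 0.609 and 0.635 FPKM in these groups. The part of these cells in the values of Cr2 and Fcer2a was not tested.

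The genes outside all lists whose library profile was most like the median of the 9 were Naa60, Polr3b, Washc2, Taf1d and Nfkbie, with root mean square differences of 0.017 to 0.028 in library-centred log2(FPKM + 0.1) over the 6 libraries. Their log2 fold changes were 0.42 to 0.47. Of 7570 candidate genes, 949 lay within 0.1 of this profile, so it was shared by many genes.

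**Figure D5:**
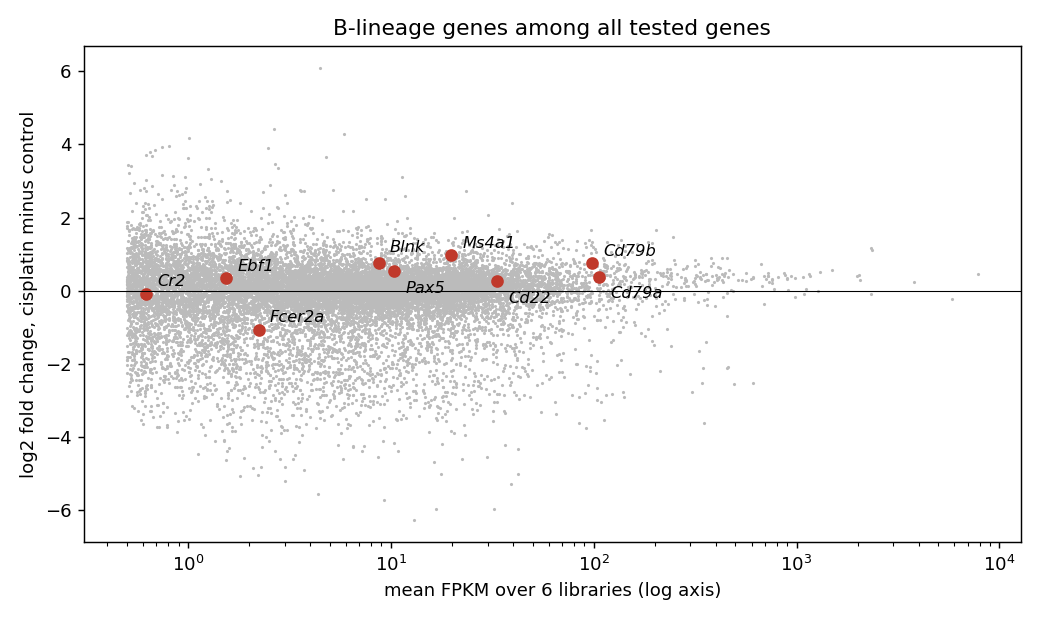
Log2 fold change (cisplatin minus control, FPKM as deposited) against mean FPKM over the 6 libraries (log axis) for all 15874 tested genes in grey, with the 9 B-lineage genes in red. Except for Fcer2a at -1.06 and Cr2 at -0.08, the 9 genes lay between 0.25 and 0.96 on this scale, with Cd79a, Cd22, Pax5 and Ebf1 below 0 relative to the T-cell identity genes.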

How the data were processed

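RNA sequencing values of 6 libraries (3 cisplatin, 3 control) were used, grouped by the sample labels. The authors deposited FPKM, made from read counts on known genes divided by gene length and a library factor. The submitters' processing notes name fastp, HISAT2 2.0.5, featureCounts 1.5.0-p3 and mm10, whereas the study's methods name LifeScope for alignment and counting. Strand setting and treatment of multi-mapped reads are not given in the sources used here. Coordinates equalled GENCODE M21 (GRCm38) for 53585 of 54495 shared genes.

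Whole reads were rebuilt from FPKM and gene length: 100% of nonzero values came within 0.1 of a whole number. Between replicates these reads differed by more than sampling noise (chi-square per degree of freedom 5.36 to 6.44). The main test was limma 3.58.1 (R 4.3.3; lmFit, eBayes with trend) on log2(FPKM + 0.1) for genes averaging 0.5 FPKM or more. Ratios to Cd79a were compared by two-sided exact permutation. Tables were read with python 3.11.15, pandas 2.3.3, numpy 2.4.6 and scipy 1.17.1, and figures drawn with matplotlib 3.10.9. On simulated data for the real genes, limma passed 159 of 199 changed genes among 15879 tested, 144 of the 153 with at least 100 reads, and 6 unchanged genes. Only 200 genes were changed there, at random in both directions, with the same dispersion for all genes. Far more genes differed in the real libraries, so these counts give no error rate for them. The 9 genes and the lists (169 symbols, 168 in the table) were chosen with earlier results of these data known. Besides the 9, each list contributed at most 4 named genes by size of change, plus genes at or near 0, and 5 genes outside the lists were named by likeness of profile. Blk, Pik3cd, Cd3d and Cd3e fall outside this rule and were named after their values were seen. Alternatives were pseudocounts 1 and 0.01, a minimum mean of 5 FPKM and none, median of ratios, quantile normalization, centring on 26 T-cell identity genes, TPM, no variance trend, limma's voom on rebuilt reads, leaving out each library, and a replicate block. The alternatives to the values relative to T-cell identity genes and the limma fit relative to Cd79a were added after the data were seen. A gene list is not reported here.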

Additional observations from a re-analysis of the deposited data

How the results depend on the processing

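On the FPKM as deposited 7 B-lineage genes were higher and 1 lower. These counts moved by over 1.5 times, or to 0, only in the first 2 settings below. Other counts are given where they moved by over 1.5 times or to or from 0. Medians are given where they changed sign or moved by more than their SD between libraries. Relative to the T-cell identity genes there were 3 higher and 3 lower, and the median log2 fold change of the 9 genes was -0.16. With a minimum mean of 5 FPKM only 6 of the 9 were tested, 6 were higher and 0 lower, 0 were called lower, and the median was 0.64. Quantile normalization, which moves the median of all tested genes to 0.16, gave a median of 0.54 for the 9, with 1 called higher (Ms4a1) and 0 called lower. On voom the median was 0.47 and 1 was called higher, and with pseudocount 1 there were 0 called lower (Fcer2a, log2 fold change -0.75). Relative to the T-cell identity genes, 5 genes of receptor signalling were higher and 9 lower, and 8 other B-lineage genes were higher and 6 lower. On that scale, pseudocount 1 gave 5 of the 9 genes as lower. Leaving out 1 library at a time gave 6 genes higher and 1 lower each time, 0 to 1 called higher, 0 to 1 called lower, medians of 0.34 to 0.42, and 2 to 3 genes lower relative to the T-cell identity genes.

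By construction, centring moved every gene of a library alike, and fewer genes were tested at 5 FPKM. A larger pseudocount also makes the fold changes of weakly expressed genes smaller on the FPKM as deposited. The cause of the other changes was not tested. Signs turned as follows. Relative to the T-cell identity genes the log2 fold changes were -0.16 for Cd79a, -0.29 for Cd22, -0.0068 for Pax5 and -0.19 for Ebf1. Cr2 had 0.086 with quantile normalization and -0.30 to 0.053 with 1 library left out, Pax5 relative to the T-cell identity genes -0.061 to 0.034, and the ratio of Ebf1 to Cd79a -0.10 to 0.024. Ebf1 also lost its call with TPM (adjusted p = 0.056 from limma), with no filter (0.096) and with the replicate block (0.098). Its adjusted p from limma was lower with voom (6.7e-04), quantile normalization (0.0070) and no variance trend (0.0081). Ebf1 passed in 7 of the 17 settings in which it was tested.

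No shared deviation of same-numbered libraries was seen: their deviations from the group means correlated at 0.02, -0.06 and -0.02. Whether same-numbered libraries share a mouse or a day is not given in the sources used here. With the replicate block 6 of the 9 genes were higher and 1 lower. Cr2, Fcer2a and Ebf1 had the fewest rebuilt reads of the 9 genes, and the part of read counts in their results was not tested.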
